A study of Mus musculus with 10 samples.

Results

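The cytosolic ribosomal protein genes encode the protein parts of the ribosome that works in the cytoplasm. They were chosen by symbol among protein-coding genes of the mouse RefSeq gene table (GRCm38.p6): Rpl or Rps followed by a number, with an optional a or x, together with Rplp0, Rplp1, Rplp2 and Rpsa. Kinases of the Rps6k family and pseudogene names were left out. The rule gave 76 of 21887 protein-coding genes, of which 46 encode proteins of the large (60S) subunit and 30 proteins of the small (40S) subunit. They lie on 19 chromosomes.

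Open chromatin of muscle stem cells from C57BL/6 mice was mapped by ATAC-seq, which sequences DNA that a transposase can reach. The cells were sorted as α7-integrin and CD34 positive and kept for 2 h in medium with prostaglandin E2 (PGE2) or with vehicle (0.1% DMSO). The 10 libraries comprised 2 of young vehicle-treated cells, 2 of young PGE2-treated cells, 3 of aged vehicle-treated cells and 3 of aged PGE2-treated cells, with young mice of 8 to 20 weeks and aged mice of 20 to 25 months. Accessible regions were given as 2 lists, 1 for young and 1 for aged cells, both after PGE2, and vehicle-treated cells were not analysed here. A difference of age and a difference in the response to PGE2 therefore cannot be told apart. With 1 list per age and no value per library, no difference between the ages has a replicate error, and no test or p-value is given. The intervals below are 95% exact Clopper-Pearson intervals and cover counting error only.

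Each eukaryotic ribosome holds 1 copy of nearly every ribosomal protein, so cells make these proteins in matched amounts. Their genes are short, carry several small introns and are among the most heavily transcribed genes of a growing cell. Their mRNAs begin with a run of pyrimidines, the TOP motif, through which mTOR signalling controls their translation. Muscle stem cells at rest make little protein, and ribosome production rises when they leave rest and enter the cell cycle.

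Values are the enrichment of a region's strongest summit over background, called the fold, as the authors' peak caller gave it. A fold was ranked only within its own list, and the paired folds printed for a gene are no measure of change between ages. The young list held 131656 regions and the aged list 117284 after touching rows had been joined. The depth of the libraries and the number of libraries behind each list are unknown, and a list called from more fragments is longer at the same threshold. Each of the 12 muscle stem cell markers was open at a gene end in both lists, as were 63.3% of all protein-coding genes. Of markers of other cells, such regions in both lists were found for 6 of 8 fibro-adipogenic, 4 of 8 endothelial, 2 of 9 immune and 4 of 6 Schwann cell genes. The 2 immune genes were Cd14, with folds of 17.5 in the young and 14.4 in the aged list, and Cd79a, with 12.1 and 9.76. Ptprc, the general leukocyte marker, had no gene-end region in either list. The fibro-adipogenic, endothelial and Schwann cell counts lie near the share of all genes, so open gene ends tell little about which cells were present. The part of other cells in the results below was not tested.

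To show the DNA under the regions described below, 6 stretches at gene starts are printed, from 100 bases before the listed start to 20 bases from it on, 5′ to 3′ on the coding strand. They are from RefSeq on GRCm38.p6. Among members with 1 listed start, they belong to the 3 strongest and the 3 weakest by fold over the start in the young list. Capitals mark CCGGAA, the core that ETS factors bind, on either strand, and a run of at least 5 pyrimidines that opens with C within 10 bases of the start, as in TOP mRNAs.
Rpl37, chr15:5116513-5116632, plus strand: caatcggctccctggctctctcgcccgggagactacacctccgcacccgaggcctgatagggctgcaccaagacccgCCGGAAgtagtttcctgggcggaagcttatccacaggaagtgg
Rpl15, chr14:18270967-18271086, minus strand: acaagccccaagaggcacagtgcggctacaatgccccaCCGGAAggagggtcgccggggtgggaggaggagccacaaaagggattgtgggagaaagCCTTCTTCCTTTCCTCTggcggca
Rps6, chr4:86857348-86857467, minus strand: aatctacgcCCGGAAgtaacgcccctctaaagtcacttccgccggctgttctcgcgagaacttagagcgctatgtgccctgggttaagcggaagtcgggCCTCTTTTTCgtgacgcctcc
Rps16, chr7:28350589-28350708, plus strand: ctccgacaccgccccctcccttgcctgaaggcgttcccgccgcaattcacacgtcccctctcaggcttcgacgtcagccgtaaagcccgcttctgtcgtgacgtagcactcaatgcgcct
Rpl6, chr5:121204401-121204520, plus strand: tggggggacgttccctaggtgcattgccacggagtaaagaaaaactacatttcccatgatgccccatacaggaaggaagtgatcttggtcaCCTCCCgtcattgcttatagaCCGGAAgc
Rpl4, chr9:64173287-64173406, plus strand: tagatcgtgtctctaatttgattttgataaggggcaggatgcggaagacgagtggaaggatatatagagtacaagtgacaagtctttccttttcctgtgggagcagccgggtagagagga

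All 76 genes were open at an end in both lists, with an accessible region no more than 1 kb away. The same held for 13855 of all 21887 protein-coding genes (63.3%). No member had such a region in 1 list only, against 701 of all genes (3.2%) with a young region alone and 105 (0.48%) with an aged region alone. The members' regions were strong within each list. In the young list their median fold was 63.1, with a range from 17.1 to 209, and their median percentile among all regions of the list was 95.7. In the aged list the median fold was 39.2, from 11.1 to 141, at a median percentile of 94.2. For all genes with a gene-end region the median percentiles were 92.7 and 90.8. A region in the top 10% of the list was found at 69 members in the young (90.8%) and 59 in the aged list (77.6%), against 8762 (40%) and 7371 (33.7%) of all protein-coding genes. The latter shares include genes with no gene-end region. Of genes that had one, as all members did, these were 8762 of 14556 in the young (60.2%) and 7371 of 13960 in the aged list.

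**Figure D1:**
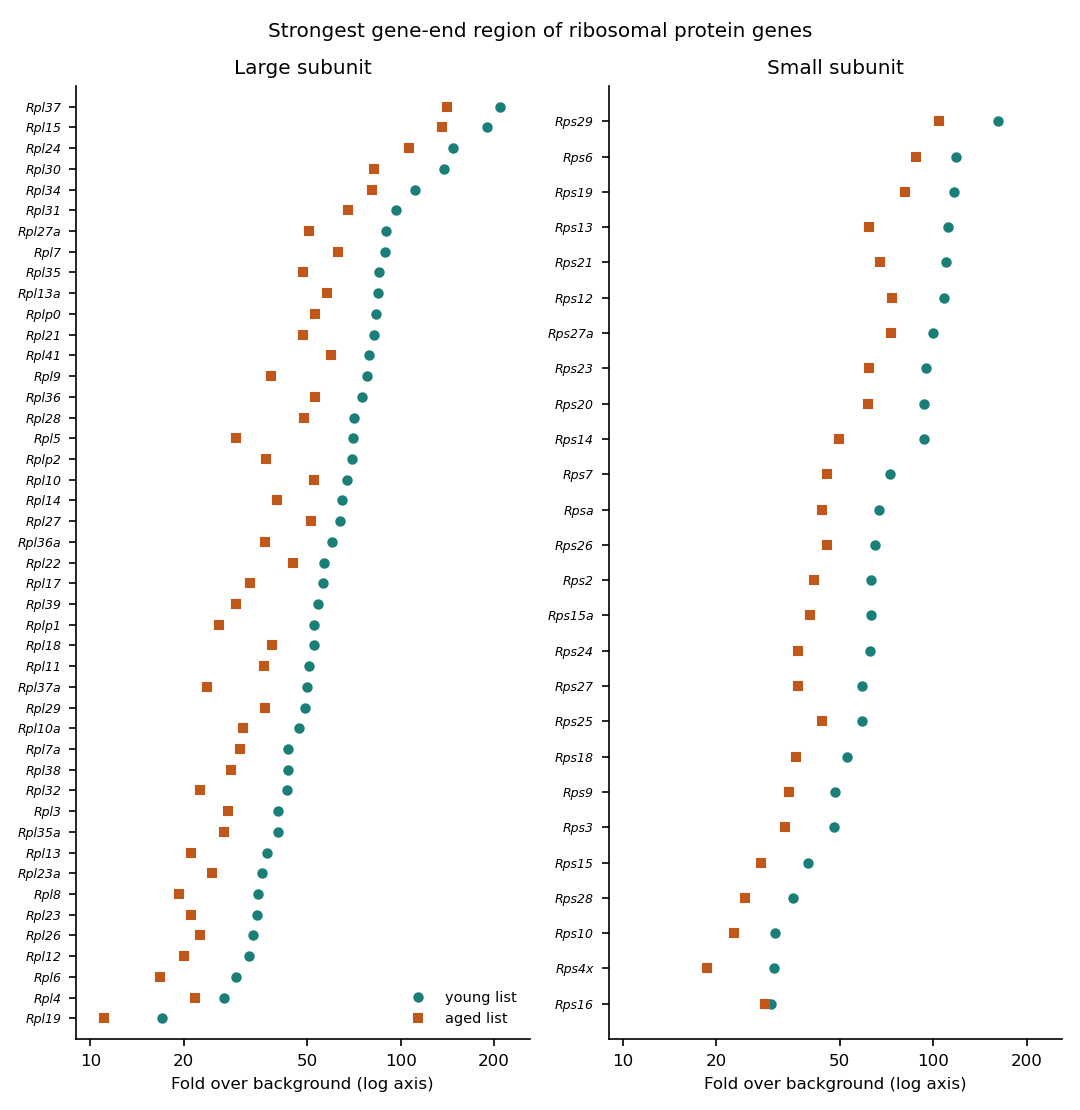
Fold over background of the strongest gene-end region of 71 of the 76 ribosomal protein genes on a log axis, by subunit, with young cells and aged cells as separate points. Folds run from 17.1 to 209 in the young and from 11.1 to 141 in the aged list, and the 2 lists have different backgrounds, so a gap between paired points is no measure of change.

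The strongest regions were at genes of both subunits. Rpl37 (chr15:5116613-5119140), which encodes a large-subunit protein, had the highest fold of the members in each list, at 209 in the young and 141 in the aged list. Rpl15 (chr14:18267823-18270986), which encodes another large-subunit protein, came next at 189 and 136. Rps29, a gene of a small-subunit protein, had folds of 161 and 104. These genes lie on different chromosomes and do not form a cluster. Rpl24 was also among the strongest, at 148 and 107, but the summit of that young region lay 7437 bp from its start, past the finish. The region did not touch the gene and had an end of another gene within 1 kb. The region over the start of Rpl24 had folds of 53.5 and 33.2. Rps6, which encodes the substrate of S6 kinase that is widely used to read out mTOR activity, had folds of 118 and 87.8.

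The weakest regions were still well above the median region of their list. Rpl19 had the lowest folds, 17.1 in the young and 11.1 in the aged list, and its percentiles of 81.4 and 76.6 were the lowest of all members. A listed start of Rpl19 inside the gene carried a stronger region, at 34.3 and 19.9. Rpl4, a large-subunit gene that hosts 5 small nucleolar RNA genes, had 26.9 and 21.8 just past its finish, where another gene has an end within 1 kb, and 20.7 and 12.2 over its start. In all, 24 of the 76 members had another gene's end within 1 kb of their strongest young region, the strongest members Rpl37 and Rpl15 among them. No share of other genes is given beside this count. Rpl6 had 29.4 and 16.8. Rps4x, the X-linked copy that encodes a small-subunit protein, had 30.6 and 18.7. Rps16 had 30.0 and 28.7, Rpl8 34.8 and 19.3, and Rpl12 32.5 and 20.0. Rps10 had 31.0 in the young list. In the young list 7 members lay below the 90th percentile, namely Rpl4, Rpl6, Rpl12, Rpl19, Rps4x, Rps10 and Rps16.

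Members with well-known roles lay between these extremes. The ribosomal stalk, which recruits elongation factors, is built from the products of Rplp0, Rplp1 and Rplp2. Rplp0 had folds of 83.1 in the young and 53.0 in the aged list. Rplp1 had 52.4 and 26.0, and Rplp2 had 69.9 and 36.8. Rpl5 and Rpl11 encode the proteins that bind 5S rRNA and that restrain Mdm2 when ribosome assembly fails. Rpl5 had 70.3 and 29.4 and Rpl11 had 50.5 and 36.2. Mdm2 itself had 68.6 and 45.1. Rps19, a gene mutated in Diamond-Blackfan anaemia, had 117 and 81.2. Rpsa, whose product is also known as a laminin receptor, had 66.7 and 43.9. Rpl38, a large-subunit gene whose mutation alters the pattern of the mouse skeleton, had 43.3 and 28.4. Rps27a, which encodes a fusion of ubiquitin with a small-subunit protein, had 99.6 and 73.3. Rpl3, which encodes a protein near the peptidyl transferase centre, had 40.4 and 27.8.

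The folds of the subunits overlapped widely. The median fold of the 46 large-subunit genes was 58.3 in the young and 36.6 in the aged list. That of the 30 small-subunit genes was 63.5 and 43.8. In the young list the quartiles were 43.0 and 82.8 for the large and 49.4 and 98.3 for the small subunit. A region in the top 5% of the young list was found at 23 large-subunit (50%) and 21 small-subunit genes (70%). This compares with 38.4% of all genes with a gene-end region. Whether the subunits differ was not tested. The members kept much of their order between the lists, with a Spearman correlation of folds of 0.955 across 76 genes. The lists share mouse strain, cell type, sequence composition and gene set, so this is a description. The Spearman correlation of fold with gene length was -0.09 in the young list, and that with the width of the region was 0.49 in the young and 0.62 in the aged list. Genes that host small nucleolar RNAs in their introns, 29 of the 76, had a median fold of 63.2 in the young list against 63.1 for the rest, and of 33.2 against 40.1 in the aged list.

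Position was compared by rank, as a percentile among the same 13855 genes with a gene-end region in both lists. The median rank of the members was 64.3 in the young and 63.4 in the aged list. A rank difference of 10 points or more was found for 8 of 76 members (10.5%), below the 13.6% among the 13855 genes. Rpl5 differed most, with a rank of 69.7 in the young and 50.3 in the aged list. Lower ranks in the aged list were also found for Rpl9 (74.7 and 62.4), Rpl37a (53.6 and 41.6) and Rplp1 (55.7 and 45.2). In the other direction Rps16 had a rank of 33.5 in the young and 49.3 in the aged list. Higher aged ranks were found too for Rpl27 (64.7 and 75.7), Rpl22 (59.4 and 69.9), Rpl10 (67.4 and 76.5) and Rpl4 (30.3 and 38.5). The median absolute difference was 3.66 points for members and 3.76 for all 13855 genes.

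The regions lay over the transcript starts. RefSeq promoter windows gave a start and a strand for 56 of the 76 genes, and all 56 had a region over a listed start in both lists. Among all 17492 genes with a listed start this held for 62.3% in the young and 59.6% in the aged list. The strongest summit lay a median of 40 bp before the start in the young (-40 bp) and 61 bp before it in the aged list (-61 bp). It lay within 250 bp of a start in 49 and 47 of the 56 genes. The summits of the lists nearly coincided, with a median gap of 9 bp over all 76 genes and a gap of at most 50 bp in 68 of them (89.5%, against 84.9% of the 13855 genes). The largest gap was 377 bp, at Rpl19.

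The lists differed in how far the open chromatin extended at these genes. The strongest gene-end region of a member had a median width of 2227 bp in the young and 1489 bp in the aged list. Over all genes with a gene-end region these widths were 1674 and 1373 bp. The region was wider in the young list at 75 of 76 members, the exception being Rps13 with 1628 and 1641 bp. Among other genes of 2 to 5 kb it was wider in the young list at 90%. Rps2 (chr17:24718121-24721927), which encodes a small-subunit protein at the mRNA entry site, had the widest young region of the members, 5848 bp with 19 summits (chr17:24719038-24724885). It ran past the finish of Rps2 and had 3 ends of other genes within 1 kb, so its width is not that of Rps2 alone. The strongest aged region at Rps2 was 1465 bp wide with 4 summits. Rpl10a had 4343 and 2913 bp, Rpl24 4318 and 3913 bp, Rpl41 4110 and 3180 bp, Rpl31 3959 and 2347 bp, and Rpl7 3915 and 3069 bp. The regions of Rpl10a, Rpl24, Rpl41 and Rpl7 also had an end of another gene within 1 kb, and that of Rpl24 did not touch the gene. Rpl41, which encodes the shortest ribosomal protein, lay wholly inside a region in both lists.

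The young list covered most of the typical ribosomal protein gene, while the aged list covered mainly its start. The median share of the gene span inside accessible regions was 64.6% in the young and 30.8% in the aged list. It was larger in the young list at 75 of 76 members and 100% in both lists at Rpl41. That direction was general. The young share was larger at 82.2% of 1340 other genes of 2 to 5 kb and at all 12 muscle stem cell markers. It was also larger at 39 of 39 translation factor, 59 of 60 ribosome assembly and 76 of 78 mitochondrial ribosomal protein genes. More than 50% of the span was covered at 50 members in the young list (65.8%) and at 10 in the aged list (13.2%). Among 4059 other genes within the members' range of span, open at an end in both lists, 17.0% and 11.5% were covered that far. That set shares the members' range of span but was not matched to them in typical length. Of genes of 2 to 5 kb, 54 members had a median of 66.2% covered in the young and 30.9% in the aged list. The 1340 other genes of that length had 31.2% and 25.0%. Rpl9, Rplp0 and Rps6 show the pattern. Rpl9 (chr5:65388364-65391431) was covered over 88.7% of its span in the young and 29.1% in the aged list. Rplp0 (chr5:115559467-115563729) was covered over 84.4% and 21.7%, and Rps6 (chr4:86854099-86857367) over 82.0% and 27.5%. Rpl13a had 86.5% and 25.4%, Rplp1 80.6% and 30.9%, and Rps19 63.9% and 28.3%. The lowest young shares were those of Rps10 (16.3%), Rpl5 (20.9%) and Rpl22 (21.2%). Their aged shares were 13.5%, 10.8% and 18.9%. Rpl10a, Rpl12, Rpl37, Rpl41 and Rps12 were among the members covered over more than 95% in the young list.

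**Figure D2:**
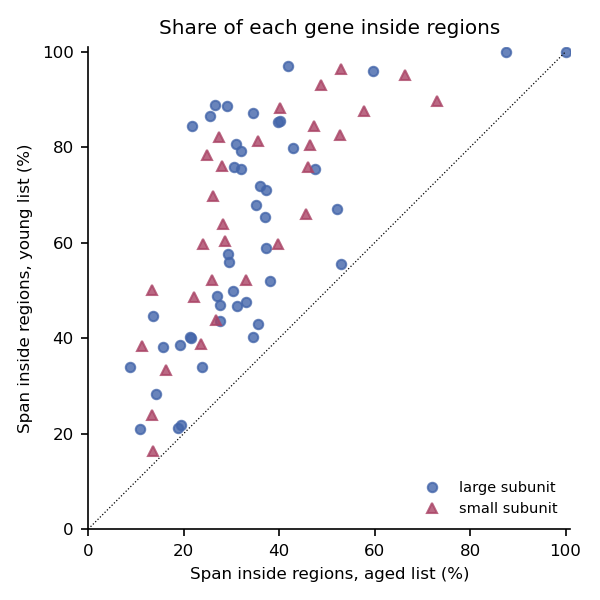
Percent of the gene span inside accessible regions for the 76 ribosomal protein genes, young list (vertical axis) against aged list (horizontal axis), with circles for large-subunit and triangles for small-subunit genes and a dotted line of equality. All points lie above the line except Rpl41, at 100% on both axes, and the medians are 64.6% (young) and 30.8% (aged).

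Since a longer list covers more of any gene, the covered length was set against other genes. The 76 spans add up to 273 kb, of which regions covered 155 kb in the young (56.6%) and 82.8 kb in the aged list (30.3%), a ratio of 1.87. For the 54 members of 2 to 5 kb the ratio was 1.90. For 1340 other genes of 2 to 5 kb the ratio was 1.24, with 35.8% and 28.9% covered. Over all protein-coding genes it was 1.31, and for the 12 muscle stem cell markers 1.38. Other strongly open genes of that length were covered less in the young list. Among genes of 2 to 5 kb with a gene-end region in the top 10% of both lists, 40 members had a median of 68.4% covered in the young and 33.0% in the aged list, and 621 other genes had 36.4% and 30.2%. With the 58642 strongest regions of each list the ratio was 1.78 for members and 1.26 for other genes of 2 to 5 kb. Whether depth or the share of fragments in open chromatin differed between the lists was not tested.

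The lists differed most in the body of the genes and past their finish. At 56 members with a known strand, the share with a region over the point 250 bp before the start was 94.6% in the young and 91.1% in the aged list. At 750 bp before the start it was 55.4% and 42.9%, against 41.8% and 32.4% among other genes of the same span range. At 5% of the span both lists gave 96.4%. The lists parted inside the gene. At 35% of the span 78.6% of members were covered in the young and 28.6% in the aged list, and at 45% of the span 57.1% and 17.9%. At 85% of the span the shares were 32.1% and 7.14%, and 250 bp past the finish they were 41.1% and 14.3%. Among 3219 other genes of the same span range with a known strand, 21.2% in the young and 15.0% in the aged list were covered at 45% of the span. These genes were matched to the members in range of span only, not in typical length. Among 69 mitochondrial ribosomal protein genes, which are longer, the shares at that point were 8.70% and 4.35%.

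**Figure D3:**
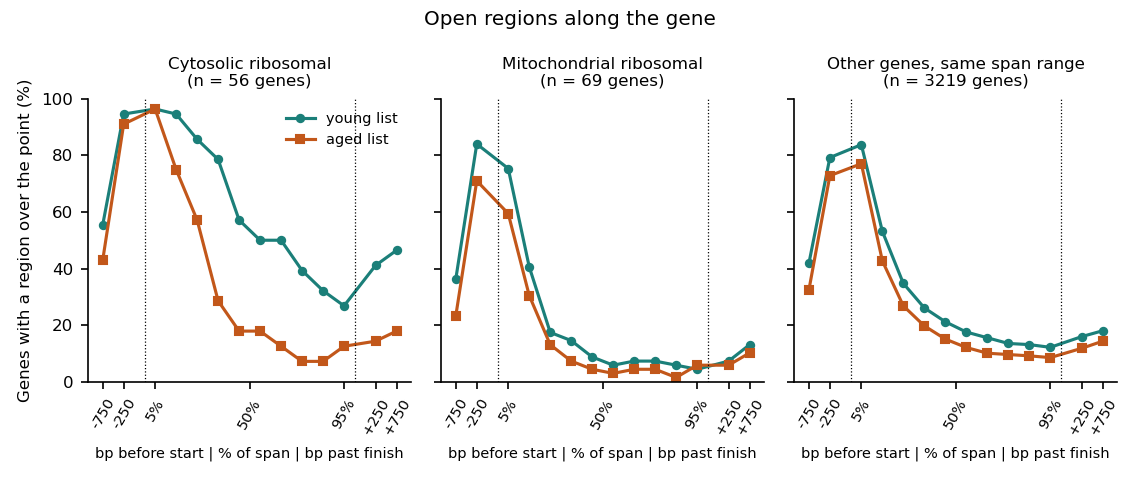
Percent of genes with an accessible region over each point, from before the start through 10 positions of the span to past the finish, for ribosomal protein genes, other genes of the same span range and mitochondrial ribosomal protein genes in both lists. Ribosomal protein genes reach 96.4% at 5% of the span in both lists and 57.1% (young) against 17.9% (aged) at 45% of it.

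Single genes, drawn as maps of their regions, showed 2 forms of this difference, a longer start region and separate weak regions downstream. In Rplp0 the region at the start ran over 2833 bp in the young (chr5:115558971-115561803, 83.1-fold) and 1389 bp in the aged list (chr5:115559001-115560389, 53.0-fold). The young list added regions of 2.33-fold and 3.13-fold downstream, at 59.2% and 87.6% of the span, with no counterpart in the aged list. In Rpl9 the start region measured 3015 bp in the young and 1585 bp in the aged list. The young list held 4 more regions towards and past the finish of Rpl9, of 1.98-fold to 3.26-fold, where the aged list had none. In Rps6 the young list held 3 further regions without an overlap, of 5.11-fold at 71.7% of the span, 2.51-fold at 94.4% and 2.24-fold just past the finish. Another young region past the finish of Rps6, of 3.61-fold and 1403 bp, was overlapped by an aged region.

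**Figure D4:**
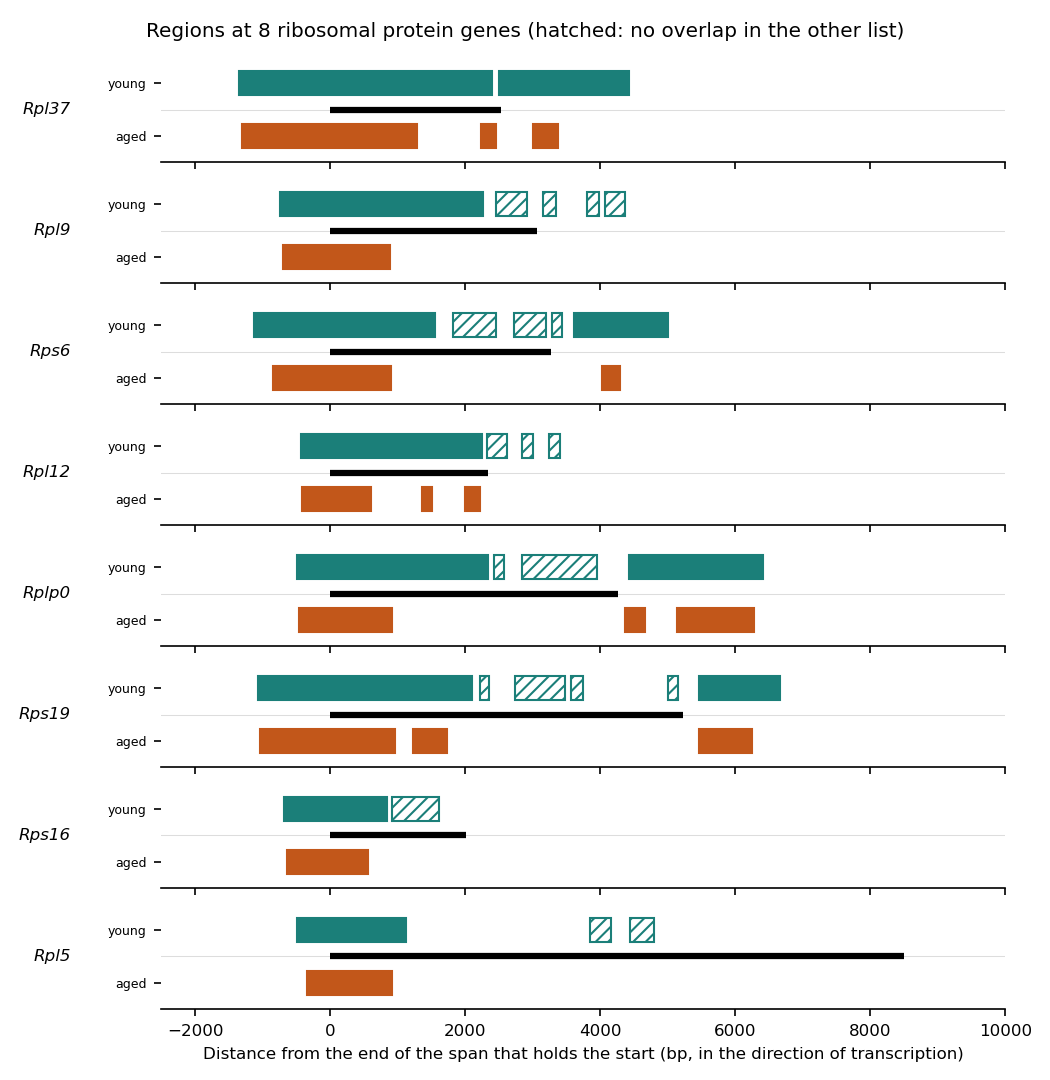
Accessible regions of both lists at 8 ribosomal protein genes, picked after the values were seen, by distance in bp from the start end of the span (black bar), with hatching for regions not overlapped by the other list. Young regions at the start run further into the gene than aged ones, and the hatched regions lie in the body or past the finish and are all young.

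Regions found in 1 list alone were almost all in the young list. Within 1 kb of the 76 genes or inside them the young list held 227 distinct regions, of which 103 (45.4%, 38.8 to 52.1) were not overlapped by the aged list. Over all regions near protein-coding genes this share was 28.7%, and near other genes of the same span range 19%. The share was not particular to the members. It was 50.8% for genes of translation factors, 43.9% for genes of ribosome assembly, 32.3% for muscle stem cell markers and 22.1% for mitochondrial ribosomal protein genes. Near the members the aged list held 162 regions, of which 3 (1.85%, 0.384 to 5.32) were not overlapped by the young list. This compares with 9.36% near all genes and 6.18% near genes of the same span range. The 3 aged regions were weak, at 2.88-fold in Rps3, 2.11-fold in Rpl22 and 2.69-fold in Rps14. The young regions without overlap were weak too, with a median fold of 2.38 (1.76 to 5.63) and a median width of 255 bp. Young regions with an overlap had 41.0-fold and 1948 bp. Keeping only the strongest 58642 regions of either list dropped young regions below 5.72-fold. That cut removes every young member region without an overlap in the whole lists, since the strongest had 5.63-fold. Of the 103 young member regions kept, 7 (6.80%) were not overlapped by a kept aged region, below the 14.4% near all genes. Those 7 overlap aged regions that the cut dropped, so this share cannot show where the members' higher share came from. In the whole lists, all member regions behind that share were weak.

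Below 6-fold the members' young share was above that of all genes in each class of strength. Of young member regions below 2.5-fold, 58 of 60 (96.7%) were not overlapped, against 73.6% near all genes. Between 2.5-fold and 4-fold the share was 36 of 47 (76.6%, against 53.5%), and between 4-fold and 6-fold it was 9 of 18 (50%, against 21.3%). Of the 8 between 6-fold and 10-fold and the 94 above, 0 were without an overlap, against 3.97% and 0.074% near all genes. In the aged list the members' share was 1 of 25 (4%) below 2.5-fold, against 33.6% near all genes. Between 2.5-fold and 4-fold it was 2 of 37 (5.41%, 0.661 to 18.2), against 11.6%, which lies inside the interval. From 4-fold up it was 0 in each class. The shares near all genes were 1.72% or less there, too low for so few member regions to show a difference. Below 6-fold as a whole the share was 103 of 125 (82.4%, 74.6 to 88.6), against 50.4% near all genes and 49.9% near genes of the same span range. Genes of translation factors had 81.8% and genes of ribosome assembly 82.7%, both close to the members. Mitochondrial ribosomal protein genes had 73.8% (58.0 to 86.1) and muscle stem cell markers 52.6%.

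**Figure D5:**
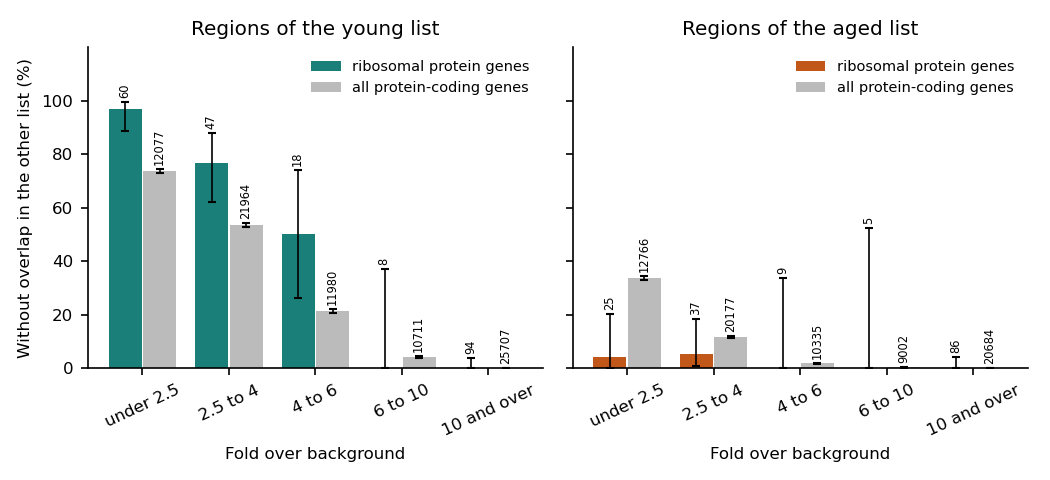
Percent of regions not overlapped by the other list, by class of fold, for ribosomal protein genes (coloured) and all protein-coding genes (grey), with the young list on the left and the aged list on the right, 95% exact Clopper-Pearson intervals as error bars and the number of regions above each bar. Young member shares fall from 96.7% below 2.5-fold to 50% between 4-fold and 6-fold and to 0 above.

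At least 1 young region without overlap was found at 53 of 76 members (69.7%), against 39.8% of all protein-coding genes and 26.7% of genes of the same span range. Rps15a, a small-subunit gene of 11 young regions, had the most, 6. Rpl6, Rpl8, Rpl9, Rps7 and Rps19 had 4 each. Rpl12, Rpl15, Rpl32, Rps3, Rps6, Rps23 and Rpsa were among the 8 with 3 each. The 14 with 2 included Rpl4, Rpl5, Rpl7, Rpl11, Rpl13, Rpl27a, Rpl34, Rpl35, Rpl38, Rplp0, Rplp1, Rplp2 and Rps13. The 25 members with 1 included Rpl3, Rpl7a, Rpl10, Rpl13a, Rpl22, Rpl23, Rpl23a, Rpl26, Rpl27, Rpl28, Rpl35a, Rpl37a, Rps9, Rps10, Rps12, Rps14, Rps15, Rps16, Rps24, Rps27, Rps27a, Rps28 and Rps29. The list thus spans both subunits, all 3 stalk genes and both genes of the 5S rRNA complex. Among the strongest of these regions were those past the finish of Rpl6 (5.37-fold), in Rpl4 (5.24-fold) and in Rps6 (5.11-fold). Others lay at Rpl12 (4.67-fold), Rps13 (4.53-fold), Rps16 (4.36-fold), Rpl3 (4.23-fold) and Rpl34 (4.05-fold). Among the 23 members with none were Rpl37, Rpl10a and Rpl41, whose young start regions covered nearly the whole gene. Rps4x, Rpl19 and Rpl31 had none either, with 38.7%, 40.2% and 49.9% of the span covered in the young list. Whether having none goes with the share covered was not tested.

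None of these young regions lay before a start. Of the 80 at members with a known strand, 14 lay in the first 50% of the span (17.5%), 33 in the rest of it and 33 past the finish (41.2% each). At genes of the same span range, 7.79% lay before the start, 39.6% in the first 50%, 38.1% in the rest and 14.5% past the finish. Of the 33 regions past the finish, 5 lay within 1 kb of an end of another gene. Regions near both ends of the gene were found at 65 members in the young (85.5%) and 40 in the aged list (52.6%), against 36.2% and 30.6% of genes of the same span range.

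Other genes of the translation apparatus were also open in both lists. Gene-end regions in both lists were found for 38 of 39 translation factor genes, 58 of 60 ribosome assembly genes and 75 of 78 mitochondrial ribosomal protein genes. Median percentiles were 96.6 in the young and 96.4 in the aged list for translation factors, 95.3 and 95.5 for assembly genes, and 92.7 and 89.8 for mitochondrial ribosomal protein genes. The ratio of covered length, young to aged, was 1.67 for translation factors, 1.67 for assembly genes and 1.35 for mitochondrial ribosomal protein genes. It was 2.02 for 7 associated genes outside the rule, which encode ribosomal proteins with other symbols, factors that act at the ribosome, and the TOP mRNA gene Tpt1. Of these, Rack1, which encodes a scaffold on the small subunit, had folds of 75.4 in the young and 48.0 in the aged list. Rps3a1, a small-subunit gene, had 85.5 and 51.0. Fau, which encodes a fusion of a ubiquitin-like protein with a ribosomal protein, had 33.4 and 24.3. Tpt1 had 183 and 112.

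Genes that control ribosome production were mostly open in both lists, with 19 of 23 having a gene-end region in each. Mtor, the kinase gene of the pathway that acts on TOP mRNAs, had folds of 82.2 in the young and 52.1 in the aged list. Rps6kb1, which encodes an S6 kinase, had 81.4 and 46.2. Myc, a driver of ribosome production, had 133 and 68.9. Gabpa, which encodes an ETS factor, had 155 and 126, Yy1 88.2 and 67.4, and Sp1 235 and 155. Larp1, which encodes the TOP mRNA-binding protein, Larp4, Gabpb1 and Rps6ka2 had no region at the ends of the listed span in either list.

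Copies of ribosomal protein genes were set beside the members. Of 8 paralog genes found in the table, 5 (against 63.3% of all protein-coding genes) were open at an end in both lists and 3 (Rpl10l, Rpl39l and Rps27rt) in neither. Rpl3l, known as the striated muscle counterpart of Rpl3, had folds of 49.0 in the young and 36.3 in the aged list. Rpl36al had 159 and 92.1, Rpl22l1 96.5 and 57.6, Rps27l 50.7 and 30.9, and Rpl7l1 33.1 and 28.1. Processed pseudogenes of ribosomal protein genes are numerous in the mouse genome and near-identical to the genes. Among 316 listed by name, a region touched 8 in the young (2.53%, 1.10 to 4.93) and 7 in the aged list (2.22%). Over all 10609 listed pseudogenes the shares were 6.22% and 5.10%. How reads that fit both a gene and its pseudogene were placed is not given in the sources used here.

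Member promoters shared short sequences that the choice of members had not used. Both strands of 300 bases were searched, from 250 before to 50 after the start, in RefSeq windows of 56 members and of 17492 genes in all. The ETS core CCGGAA was found at 31 members (55.4%, 41.5 to 68.7), against 20.9% of all genes and 28.7% of other genes open in both lists. It is printed above in Rpl37, Rpl15, Rps6 and Rpl6 and has no match in the window of Rps16 or Rpl4. The pyrimidine run at the start, read on the coding strand, was found at 34 members (60.7%, 46.8 to 73.5), against 34.9% and 36.2%. This count rests on the listed start. A run that opens more than 10 bases from it was not counted, as with the unmarked run in the stretch of Rpl4 printed above. Members not counted can therefore still hold a run nearby. Both were found at 22 members, the ETS core alone at 9, the pyrimidine run alone at 12 and neither at 13. TGACGT, a core that CREB proteins bind, was found at 12 members (21.4%, 11.6 to 34.4), against 9.60% of all genes and 12.6% of open ones, the latter inside the interval. AAGATGG, a YY1 core, was found at 9 (16.1%, 7.62 to 28.3), against 7.18% and 7.77%, the latter inside the interval too. GGGCGG, which Sp1 and Klf factors bind, was found at 34 (60.7%), against 49.2% and 67.7%. CCAAT was found at 18 (32.1%, against 42.3% and 42.6%). TATAAA was found at 6 (10.7%, against 14.8% and 8.90%) and CACGTG at 6 (10.7%, against 8.91% and 11.4%), each between the share of all genes and that of open ones. The reverse of the ETS core, TTCCGG, begins with pyrimidines and can overlap the run at the start; a gene with several listed starts counted if any of its windows held a match. A match describes the sequence and shows no binding. Members with the ETS core had a median fold of 64.8 in the young and 43.7 in the aged list, and members without it 56.8 and 34.2, with wide overlap in each list.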

How the data were processed

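The submitters' processing notes name Bowtie2 and the mm10 (GRCm38) genome. The authors deposited 2 narrowPeak lists. In them the fold ratio of each summit, its −log10 q-value and its score are the authors' own. The sources used here do not give the caller's version and options, the read filters, or the libraries pooled in each list. Each deposited list is a single value per age, so no model was fitted. Touching or overlapping rows were merged and the strongest summit kept (265507 rows to 131656 regions, young; 215838 to 117284, aged). A region belonged to a gene if it lay within 1 kb of the span or inside it, and counted as overlapped if it shared 1 bp or more with the other list. Gene spans, strand and promoter windows came from RefSeq tables (GRCm38.p6). Strand was known for 56 of 76 members, and other spans include predicted transcripts. The genes named are, by rule, the 5 strongest and 5 weakest members in each list, those with a region in 1 list alone, the 5 with the largest rank differences in each direction, the 5 widest, and a few of known role. Some genes that the rule names are not reported here. Members, gene lists and tests were chosen with earlier results of these data known. Alternatives were the strongest regions in equal number, a stricter −log10 q (5 or more), windows of 500 bp and 2.5 kb, reciprocal overlap of 50%, other merging of rows, start ends only, and added ribosomal genes. Classes of strength and span, genes of the same span range and regions touching the span were added after seeing the data. The code was tested on simulated data. Python 3.11.15, pandas 2.3.3 and scipy 1.17.1 were used.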

Additional observations from a re-analysis of the deposited data

How the results depend on the processing

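All 76 members kept a gene-end region in both lists under the alternatives run, except that 75 did with windows of 500 bp, and that with the start end alone, at members of known strand, 55 did and 1 had one in the young list only. Their median percentile was 90.4 in the young and 88.3 in the aged list with the strongest 58642 regions of each list, and 97.2 and 96.1 without merging of rows. The share of young member regions without an overlap, 45.4% in the lists as a whole, was 36.5% at a −log10 q of at least 5 and 61.7% with reciprocal overlap (all genes 41.6%). It was 19.6% without merging (all genes 15.5%), 8.20% at the start end, 38.7% for regions touching the span (chosen after seeing the data), and 6.80% for the strongest regions in equal number, below the 14.4% near all genes. A region counted as one-age in equal number can overlap a weaker one that was dropped. For the young member regions this was so in every case, since the cut removed all those without an overlap in the whole lists. The aged share, 1.85% (all genes 9.36%), was 46.3% with reciprocal overlap (all genes 34.1%), 0 in equal number (all genes 9.51%) and 0 at the start end. With reciprocal overlap the members' aged share was thus above that of all genes, not below it. Of 976 values (folds and percentiles) of named members recomputed, 126 moved by more than 1%. Of these 5 were folds, which seldom move because the strongest summit is kept. No paired analysis was possible because each age has 1 list with no replicate columns, and for the same reason no replicate could be left out. Depth is unknown, so weak regions missing from the aged list cannot be told apart from regions below its threshold.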
